A study of Mus musculus with 8 samples.

Results

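Nuclear genes of mitochondrial proteins were examined in Pol II pSer5 ChIP–seq of lung smooth muscle cells (SMCs). Members were all peaks whose assigned gene name begins with Mrpl, Mrps, Nduf, Timm, Tomm, Uqcr, Atp5, Slc25 or Sdha to Sdhd, begins with Cox or Coq followed by a digit, or ends in ars2. The rule used gene names only and no measured value, but it was chosen with earlier results of these data known. It gave 40 peaks, each at a different gene, of 1761 peaks in the table and of 1312 genes with an assigned peak. All 40 were promoter peaks, centred no farther than 5000 nt from their gene's TSS, of 1125 promoter peaks in the table. Complex III was not represented, since none of the 8 Uqcr genes had an assigned peak.

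The data comprised 2 immunoprecipitated libraries of Ctrl SMCs (labelled WT) and 2 of Tet3smKO:T SMCs (labelled Mut), all C57BL/6. In Tet3smKO:T mice, floxed *Tet3* was deleted by the α-SMA-ERT2Cre transgene, a Cre recombinase under the smooth muscle actin promoter that acts after tamoxifen, and a ROSA26 tdTomato reporter marked the recombined cells. Control mice in the study lacked the floxed allele but carried the Cre allele, the reporter or both. The labels give neither an age nor which of these each library had. Sorting by tdTomato, which marks recombined cells, implies that the Ctrl cells here carried both. Cells that were tdTomato positive were sorted from lungs, and both genotypes were then exposed to DRB, an inhibitor of the kinase that releases paused polymerase, at 100 µmol and 4 °C for 1 h. The antibody binds polymerase phosphorylated at serine 5, the form found at the start of transcription. The methods state, for quantitative work in general, at least 2 biological replicates, but the labels do not tie these libraries to separate animals, so p-values measure only the spread between these libraries, which may be technical. No peak was assigned to *Tet3* or to any of 10 smooth muscle marker genes, so that neither the deletion nor the cell identity could be checked in this table. Likewise, none of the 5 endothelial, 5 epithelial, 6 immune or 6 fibroblast and pericyte markers had a peak.

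Almost all mitochondrial proteins are encoded in the nucleus, translated in the cytosol and carried into the organelle by translocases of the outer (TOM) and inner (TIM) membranes. Subunits of respiratory complexes I to IV and of the ATP synthase assemble with a few subunits made inside the mitochondrion by a separate ribosome, the mitoribosome, whose proteins are themselves imported. Promoters of these genes often lack a TATA box and are known targets of NRF1, of the ETS factor GABP, of YY1 and of SP proteins.

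Values are normalized read numbers per peak, and the depth behind them was low. The methods describe input subtraction, but in replicate 2 of each genotype nearly all values fall on whole reads times a factor. In replicate 1 of each genotype this could not be checked. It is thus not settled whether input was subtracted from the values. The values summed to between 25673 and 27058 per library, and divided by the normalization factor of each library to an estimated 21646 to 37207 reads in peaks. The members held 677 and 595 units of this sum in Ctrl replicates 1 and 2, compared with 583 and 633 in Tet3smKO:T replicates 1 and 2, or 2.56% and 2.20% against 2.27% and 2.38%. These ranges overlapped. A typical member therefore rested on few reads in each library. The mean value of members over the 4 libraries ran from 8.0 to 34.25 with a median of 13.9, against a median of 13.75 in all promoter peaks. Between replicates, log2 values of the 40 members correlated with r = 0.51 in Ctrl and 0.61 in Tet3smKO:T, across peaks that share the depth of a library. Over all promoter peaks these correlations were higher, at 0.68 and 0.69.

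Motif letters searched on both strands of each peak were GCGCATGC for NRF1, CCGGAAG for ETS factors, GGGCGG for SP factors, AAGATGGC for YY1, CCAAT for NFY, TGACGTCA for CRE and TATAAA for the TATA box. No match of one motif overlapped a match of another in these 40 peaks. The stretches shown here come from peaks of at most 300 nt with a high mean value and an NRF1, ETS or YY1 match, and from the peak with the smallest p-value, *Ndufs7*. They were read from the RefSeq genome GRCm38.p6, 5′ to 3′ on the strand of the assigned gene, with matches in capitals. Each stretch is 30 nt around the match.
Ndufs7, TATA, plus strand, chr10:80249344-80249373: cacaggTATAAAgcgggtcagaaccactcg
Mrpl39, NRF1, minus strand, chr16:84735349-84735378: aggagaggcGCGCATGCGCccccgcgtggc
Tomm7, NRF1, minus strand, chr5:23844136-23844165: ccccacgtgGCGCATGCGCagctcctctcc
Tomm7, ETS, minus strand, chr5:23844117-23844146: agctcctctccCTTCCGGgatccggacacg
Atp5j2, YY1, minus strand, chr5:145191505-145191534: cggacaccaggacttcAAGATGGCgtcact
Yars2, YY1, plus strand, chr16:16302970-16302999: gcgtgtcccgcAAGATGGCggcgcccatgc

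In *Mrpl39* and *Tomm7* the NRF1 letters were present on both strands at the same site, so that the capitals cover a palindrome. NRF1 letters occurred in 5 of 40 member peaks (12.5%), those of *Atp5g2*, *Sdhb*, *Mrpl32*, *Mrpl39* and *Tomm7*, against 10.4% of all promoter peaks. ETS letters occurred in 11 members (27.5% against 30.2%), and YY1 letters in 3 members, *Atp5j2*, *Coq9* and *Yars2* (7.5% against 7.47%). At least 1 of these 3 motifs was found in 17 members (42.5%) and in 484 of 1125 promoter peaks (43.0%). SP letters occurred in 18 members (45.0%), against 65.3% of promoter peaks, and the median GC content was 64.3% against 68.8% of bases. The difference in the SP share was not tested. In windows of 300 nt around the peak centre, the SP shares were 57.5% and 73.7%. NFY letters occurred in 7 members (17.5% against 17.2%), CRE letters in none (0% against 3.47%), and the TATA letters only in *Ndufs7* (2.5% against 1.42%).

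**Figure D1:**
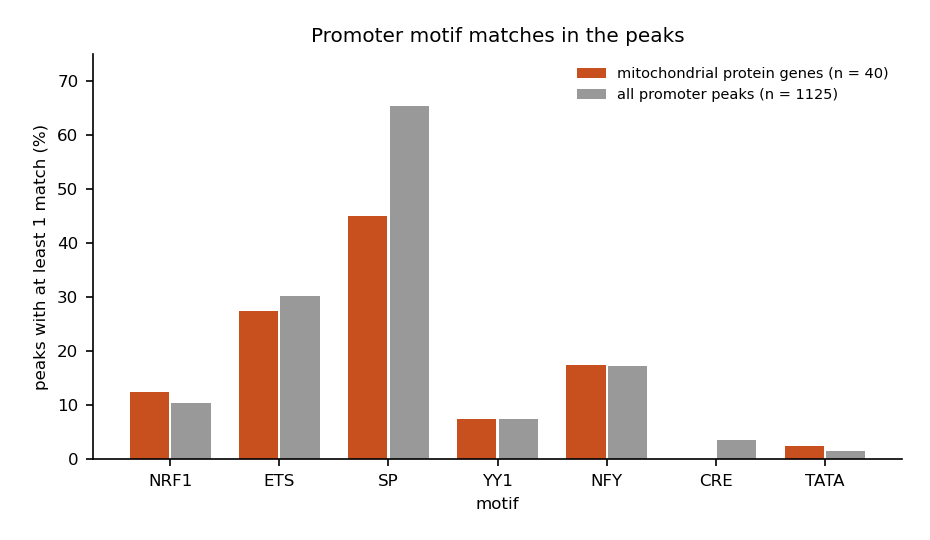
Share of peaks with at least 1 match of each motif, on the vertical axis in percent, for the 40 member peaks (orange) and all 1125 promoter peaks (gray). The shares are close for NRF1, ETS, YY1 and NFY, and the SP share is 45.0% in members against 65.3% in all promoter peaks.

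The same letters were counted in RefSeq promoters of GRCm38.p6, from 250 nt before to 50 nt after the gene start, whether or not a peak was present. Of 269 promoters of genes that meet the name rule, 10.0% held NRF1 letters, 28.6% ETS letters, 11.9% YY1 letters and 55.8% SP letters. Over all 32817 RefSeq promoters these shares were 2.71%, 8.86%, 2.74% and 35.6%. The shares for NRF1, ETS and YY1 were thus higher in promoters of nuclear mitochondrial genes than in all promoters, whereas within the peaks the members and all promoter peaks differed by less than 3 percentage points for these motifs. Neither difference was tested. A match is only a run of letters and does not show that a factor is bound.

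In the GENCODE M21 annotation, 286 protein-coding genes met the name rule, and 40 of them (14.0%) had an assigned peak, against 1226 of all 21951 protein-coding genes (5.59%). The share was 10 of 49 for proteins of the large mitoribosomal subunit and 3 of 29 for those of the small subunit. Of the oxidative phosphorylation genes, 8 of 46 for complex I, 1 of 8 for complex II, 4 of 27 for complex IV and 4 of 18 for the ATP synthase had a peak. Protein import contributed 4 of 26, the SLC25 carriers of the inner membrane 3 of 47, mitochondrial aminoacyl-tRNA synthetases 2 of 17 and coenzyme Q synthesis 1 of 11. A gene without a peak was not shown to lack Pol II pSer5, since the table lists only regions above the thresholds of the authors.

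Member peaks lay close to the TSS. The centre was at a median of 1.5 nt downstream, with a range from 103 nt upstream to 722.5 nt downstream, against a median of 5.5 nt for all promoter peaks. Of the 40 centres, 20 were upstream of the TSS and 20 in an exon outside the coding sequence, and 24 of 40 lay within 50 nt of the TSS, against 560 of 1125 promoter peaks. The 7 peaks farther than 250 nt were those of *Atp5f1*, *Mrpl1*, *Atp5j2*, *Mrpl39*, *Mrpl13*, *Ndufa5* and *Ndufs7*, or 7 of 40 against 191 of 1125 promoter peaks. All 3 small-subunit peaks were upstream of the TSS, as were 3 of 4 complex IV peaks and 2 of 10 large-subunit peaks. Peak width ran from 125 to 365 nt (median 198 nt).

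**Figure D2:**
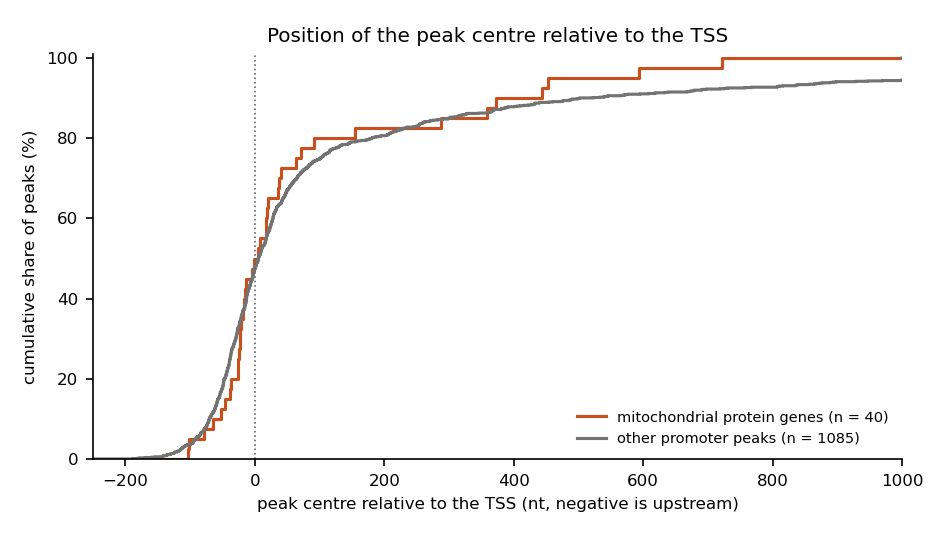
Cumulative share of peaks in percent (vertical axis) by the position of the peak centre relative to the TSS in nt (horizontal axis, negative values upstream), for the 40 members (orange) and the other 1085 promoter peaks (gray). The curves run together around the TSS. All members lie within 722.5 nt, while part of the other promoter peaks lies beyond the right edge at 1000 nt.

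Several members shared their promoter region with a gene on the opposite strand. An opposite-strand transcript start lay within 500 nt of the nearest start in 8 of 40 members, against 28.1% of promoter peaks, and in each of the 8 the partner was protein coding (14.8% of promoter peaks). The pairs were *Ndufs1* with *Eef1b2*, *Mrpl30* with *Mitd1*, *Timm29* with *Yipf2*, *Mrpl13* with *Mtbp*, *Slc25a32* with *Dcaf13*, *Mrpl21* with *Ighmbp2*, *Coq9* with *Ciapin1* and *Mrpl32* with *Psma2*. In 5 members the peak centre was nearer to a start of another gene, which was *Wdr77* for *Atp5f1* and the partner named above for *Timm29*, *Mrpl13*, *Mrpl21* and *Coq9*. Polymerase of the member and of its neighbor cannot be told apart at such peaks.

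Levels between genes were compared per 100 nt of peak. On this scale *Tomm20* (chr8:126945739-126946053), the outer membrane receptor for proteins with a presequence, had the highest level of the members at 10.9 and ranked 37th among all 1125 promoter peaks. Close to it were *Cox18* (10.8), which inserts a complex IV subunit into the inner membrane, *Cox7a2* (10.5), *Mrpl39* (10.5) and *Slc25a32* (10.1), a carrier of folate and FAD. The lowest level was 5.08 at *Mrps16*, and the median of members was 7.15 against 6.99 for promoter peaks. *Tomm20* had values of 43 and 31 in Ctrl versus 33 and 30 in Tet3smKO:T, so that neighbors at the top of this order did not differ beyond their spread between libraries. The groups with the highest median levels were complex IV (9.27 per 100 nt, 4 peaks) and protein import (9.02, 4 peaks), and the lowest with more than 1 peak was complex I (6.59, 8 peaks).

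**Figure D3:**
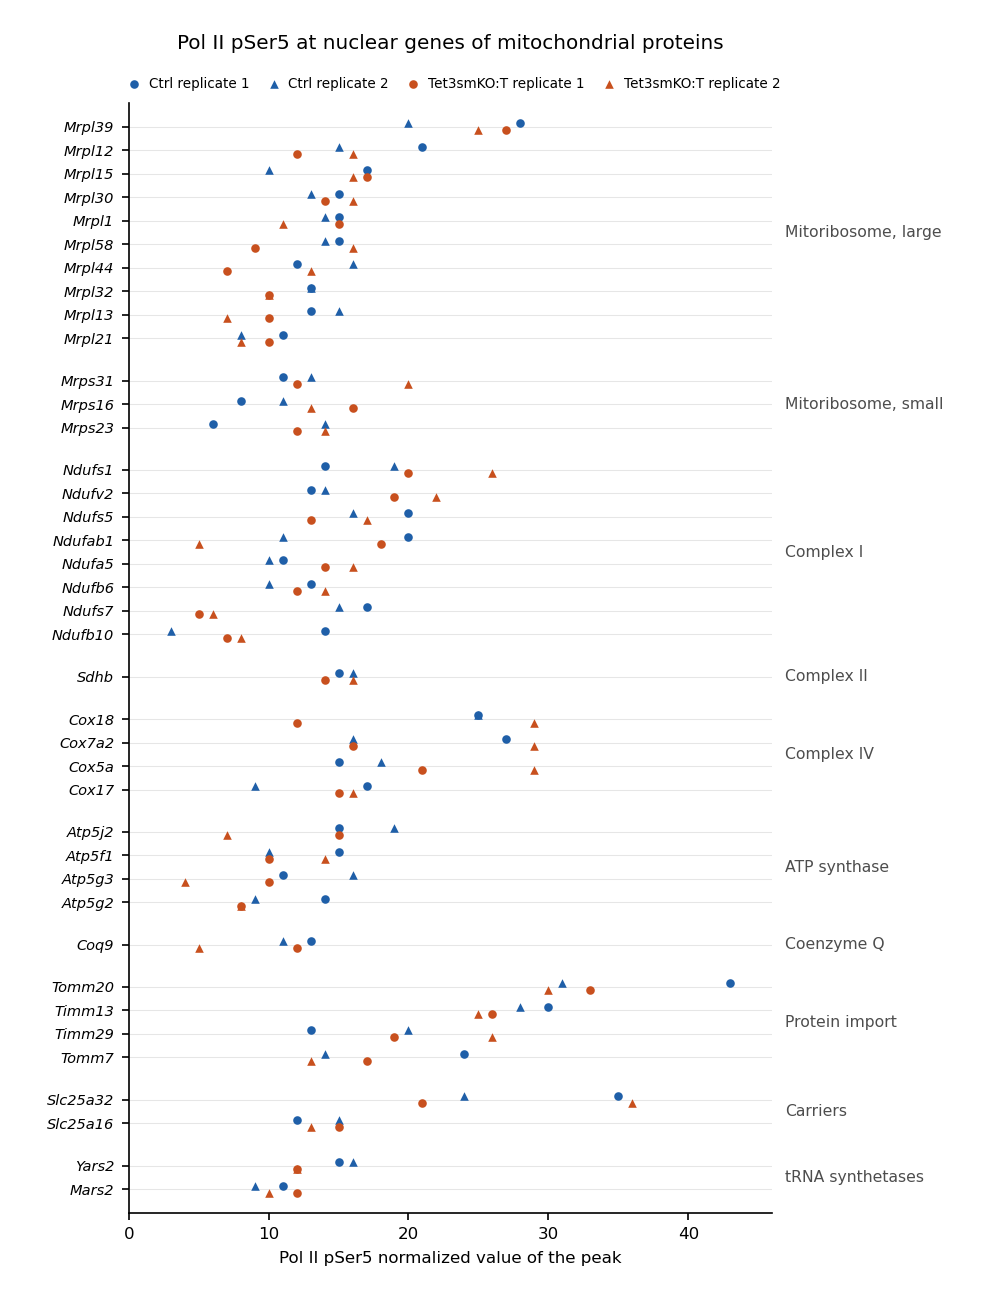
Normalized Pol II pSer5 value of each member peak (horizontal axis) in Ctrl replicates 1 and 2 (blue circle and triangle) and Tet3smKO:T replicates 1 and 2 (orange circle and triangle), for 39 of the 40 members, grouped by function and ordered by the mean, with equal values drawn over each other. In 27 of these 39 genes the genotypes overlap, as they do in 1166 of all 1761 peaks. *Ndufs7* has both Tet3smKO:T values (5 and 6) well below both Ctrl values (17 and 15).

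The comparison of Tet3smKO:T with Ctrl asks whether loss of TET3, which oxidizes 5-methylcytosine, changed Pol II pSer5 at these promoters. The median log2 fold change was -0.07, against -0.03 for promoter peaks and -0.02 for all peaks, and 17 members (42.5%) were above 0 and 23 below, where 47.0% of promoter peaks were above 0. Leaving out single libraries moved the median of members between -0.30 (without Ctrl replicate 2) and 0.025 (without Tet3smKO:T replicate 1). By the methods the values were normalized with DESeq2, and the library sums are similar. A change shared by most peaks would thus be largely removed from these medians. They cannot speak to the general rise in binding at TSSs that the paper reports after loss of *Tet3*. More polymerase per cell and more cells with polymerase cannot be told apart in these pooled cells. No member passed an adjusted p of 0.05 by limma with Benjamini–Hochberg adjustment over all peaks, nor did any other of the 1761 peaks (0%). The lowest adjusted p by limma among members was 0.681. The log2 fold changes of members ran from -1.39 to 0.57, with a median standard error of 0.32.

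At an unadjusted p under 0.05, limma called 0 members higher (background 3.24% of peaks) and 1 lower (background 3.98%), and over all peaks it called 127. With any single library left out it called 2 to 5 members, with the highest number without Tet3smKO:T replicate 1, while over all 1761 peaks the same fits called 92 to 178. With estimated reads in a quasi-Poisson test, 5 of all peaks passed an adjusted p of 0.05, with 0 members among them. Both Tet3smKO:T values lay above both Ctrl values in 5 members (12.5%), where the background was 17.1% of all peaks. They lay below both in 7 members (17.5%), where the background was 16.6%. Both shares were near or under the background.

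**Figure D4:**
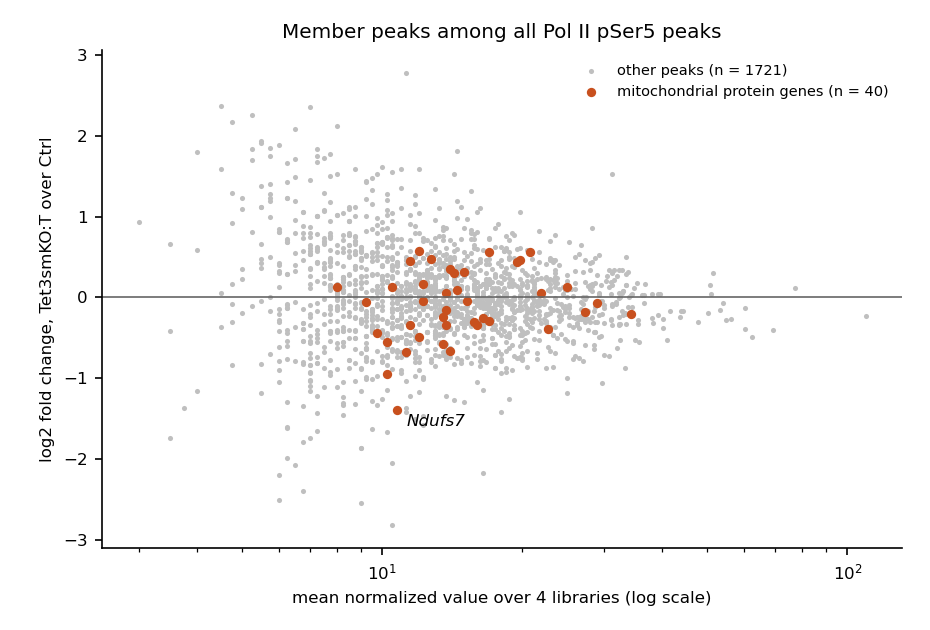
Log2 fold change of Tet3smKO:T over Ctrl on the scale of value + 1 (vertical axis) by the mean value over the 4 libraries (horizontal axis, log scale) for the 40 members (orange) and all other peaks (gray). The members lie within the cloud of all peaks, and *Ndufs7* at -1.39 is the lowest of them.

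Complex I, the NADH dehydrogenase that feeds electrons into the chain, held the widest spread, with 5 of 8 members above 0 and a median log2 fold change of 0.15. *Ndufs7* encodes an iron–sulfur subunit next to the quinone site. Its peak (chr10:80249344-80249472) had values of 17 and 15 in the Ctrl replicates but only 5 and 6 in the Tet3smKO:T replicates. The Tet3smKO:T libraries were thus lower by a log2 fold change of -1.39 ± 0.33 (SE), the only member with an unadjusted p under 0.05, and limma gave an adjusted p of 0.681. The estimated reads behind these values were 19, 12, 7 and 5. The peak was centred 287 nt downstream of the TSS in the table and 44 nt from the nearest transcript start in GENCODE.

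Other complex I genes lay in the opposite direction. *Ndufv2* (chr17:66101490-66101784), an iron–sulfur subunit of the NADH-binding arm, had values of 13 and 14 in Ctrl versus 19 and 22 in Tet3smKO:T (log2 fold change 0.57 ± 0.26 SE, limma adjusted p = 0.695). *Ndufs1* (chr1:63176645-63176962), the large iron–sulfur subunit of the same arm, had 14 and 19 against 20 and 26 (0.46 ± 0.29 SE, limma adjusted p = 0.716). In both genes, and in the accessory subunit *Ndufa5* (11 and 10 against 14 and 16), the Tet3smKO:T values were above both Ctrl values. The same held in 17.1% of all peaks, and none of these differences passed the test. *Ndufab1*, the mitochondrial acyl carrier protein, varied more between replicates than between genotypes, with 20 and 11 in Ctrl versus 18 and 5 in Tet3smKO:T. The accessory subunits *Ndufb6*, *Ndufb10* and *Ndufs5* overlapped between genotypes, and in *Ndufb10* the Ctrl replicates alone spanned 14 and 3. The signs of *Ndufb6* and *Ndufb10* changed when single libraries were left out.

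*Sdhb*, the iron–sulfur subunit of complex II, was nearly level, with values of 15 and 16 in Ctrl versus 14 and 16 in Tet3smKO:T. Complex IV, the cytochrome c oxidase that passes electrons to oxygen, had 3 of 4 members above 0. *Cox5a* (chr9:57521048-57521307), a structural subunit, had values of 15 and 18 against 21 and 29, which did not overlap (0.56 ± 0.28 SE, limma adjusted p = 0.715). *Cox18* had 25 in each Ctrl replicate and 12 and 29 in the Tet3smKO:T replicates, so that the genotypes overlapped. The copper chaperone *Cox17* and the structural subunit *Cox7a2* overlapped too, and both changed sign when single libraries were left out.

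All 4 ATP synthase genes were below 0, with a median log2 fold change of -0.55. *Atp5g2* and *Atp5g3*, which encode copies of subunit c of the membrane ring, had 14 and 9 against 8 and 8, and 11 and 16 against 10 and 4, without overlap in either gene. *Atp5j2* (chr5:145191505-145191712), a small membrane subunit, had 15 and 19 in Ctrl versus 15 and 7 in Tet3smKO:T (-0.66 ± 0.41 SE, limma adjusted p = 0.716). *Atp5f1*, of the peripheral stalk, had 15 and 10 against 10 and 14 and overlapped, at a peak nearer to the start of *Wdr77*. Its log2 fold change was -0.05 and ranged from -0.32 to 0.22 with single libraries left out. None of the 4 passed the test, and Tet3smKO:T replicate 2 was the lowest library for *Atp5g3* and *Atp5j2*. Over all peaks, both Tet3smKO:T values lay below both Ctrl values in 16.6%. The sum over the 4 peaks was 55 and 54 in Ctrl versus 43 and 33 in Tet3smKO:T. Sums also did not overlap for the tRNA synthetases (26 and 25 against 24 and 22). For the small mitoribosomal subunit they separated the other way (25 and 38 against 40 and 47). In all other groups the sums overlapped or met, as in complex I (122 and 98 against 108 and 114) and protein import (110 and 93 against 95 and 94). The sums were not tested. *Coq9*, a lipid-binding protein of coenzyme Q synthesis, had 13 and 11 against 12 and 5 and overlapped between genotypes (-0.55 ± 0.46 SE, limma adjusted p = 0.744).

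**Figure D5:**
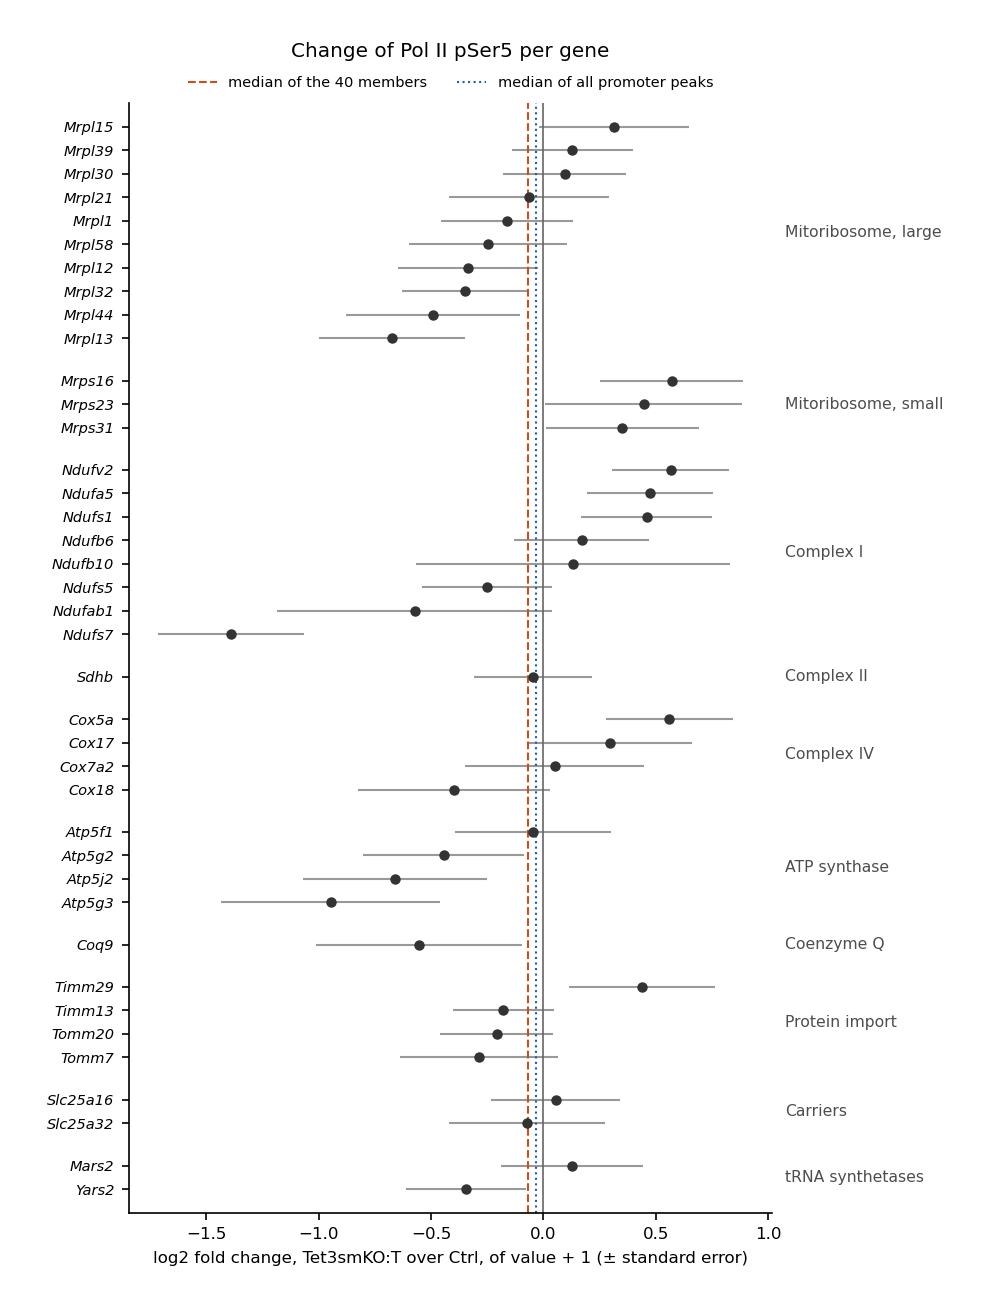
Log2 fold change of Tet3smKO:T over Ctrl with its standard error (horizontal axis) for 39 of the 40 members, grouped by function. The dashed line is the median of the 40 members (-0.07) and the dotted line that of all promoter peaks (-0.03). Many of the error bars reach 0, and *Ndufs7* lies farthest from it.

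The mitoribosome is built of a large and a small subunit, and the 13 mitoribosomal genes had a median log2 fold change of -0.06. All 3 small-subunit genes were above 0 (median 0.45) and 3 of 10 large-subunit genes were (median -0.20), and no member of either subunit passed the test. These signs were not firm. The 3 large-subunit genes above 0 changed sign between the alternatives tried (*Mrpl15* -0.04 to 0.67, *Mrpl30* -0.0028 to 0.19, *Mrpl39* -0.10 to 0.36). So did *Mrpl1*, *Mrpl21* and *Mrpl58*, which were below 0, and *Mrps31* fell as low as 0.0043. *Mrps16* had values of 8 and 11 in Ctrl versus 16 and 13 in Tet3smKO:T, which did not overlap. *Mrps31* had 11 and 13 against 12 and 20 and *Mrps23* had 6 and 14 against 12 and 14, and both overlapped. The log2 fold change of *Mrps23* ranged from -0.10 to 1.00 with single libraries left out. In the large subunit, *Mrpl39* had the highest value, with 28 and 20 in Ctrl versus 27 and 25 in Tet3smKO:T (0.13 ± 0.27 SE, limma adjusted p = 0.905). *Mrpl13* (13 and 15 against 10 and 7) and *Mrpl32* (13 and 13 against 10 and 10) were the 2 large-subunit genes with both Tet3smKO:T values below both Ctrl values. Such a separation occurred in 16.6% of all peaks. The other large-subunit genes overlapped between genotypes. They included *Mrpl12*, which also binds the mitochondrial RNA polymerase (21 and 15 against 12 and 16), and *Mrpl58*, which releases stalled peptides (15 and 14 against 9 and 16).

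Among the import genes, *Tomm20* (values given above) had a log2 fold change of -0.21 ± 0.25 SE. *Tomm7*, a small subunit of the outer membrane channel, had values of 24 and 14 against 17 and 13, which overlapped (-0.29 ± 0.35 SE). *Timm13*, a chaperone of the space between the membranes, had 30 and 28 in Ctrl versus 26 and 25 in Tet3smKO:T, a small but non-overlapping difference (-0.18 ± 0.22 SE, limma adjusted p = 0.822). *Timm29*, of the inner membrane translocase for carriers, lay the other way with 13 and 20 against 19 and 26 and overlapped (0.44 ± 0.32 SE). No import gene passed the test.

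No carrier gene passed the test either. *Slc25a32* had values of 35 and 24 in Ctrl versus 21 and 36 in Tet3smKO:T, a spread within each genotype of more than 10 units. *Slc25a16* had 12 and 15 against 15 and 13 and overlapped too. Of the tRNA synthetases of the organelle, *Yars2*, for tyrosine, had 15 and 16 against 12 and 12 without overlap (-0.34 ± 0.27 SE, limma adjusted p = 0.740), and *Mars2*, for methionine, had 11 and 9 against 12 and 10.

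Members with an NRF1, ETS or YY1 match had a median log2 fold change of -0.18, with 6 of 17 above 0. The 23 without a match had a median of -0.05, and the difference between these medians was not tested. By the terms listed in the table, 129 other peaks had a gene annotated to mitochondria. Their median was -0.01, with 64 above 0 and 0 past an adjusted p of 0.05 by limma. At an unadjusted p under 0.05, limma called 4 higher and 1 lower, against 3.24% and 3.98% of all peaks.

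Lists of mitochondrial genes mostly outside the name rule also held no peak that passed the test. Of 77 genes for mitochondrial DNA maintenance and gene expression, 8 had a peak, 6 of them above 0 (median 0.09) and none past the test. *Polg2*, the accessory subunit of the mitochondrial DNA polymerase, had values of 6 and 9 in Ctrl versus 12 and 14 in Tet3smKO:T (0.74 ± 0.35 SE, limma adjusted p = 0.696). *Ssbp1*, which coats single-stranded mitochondrial DNA, had 25 and 23 against 28 and 32, also without overlap. Of 28 genes for the tricarboxylic acid cycle and pyruvate dehydrogenase, only *Dlat*, a pyruvate dehydrogenase subunit, had a peak (8 and 14 against 12 and 11). Of 63 genes for assembly of the chain and electron carriers, 6 had a peak, with 2 above 0 and a median of -0.11. The Sdhaf genes in this list also meet the name rule, but none of them had a peak. Of 62 genes for quality control, import and dynamics, 5 had a peak, with 2 above 0 and a median of -0.12. *Dnajc19* (25 and 21 against 19 and 14) and *Mtch2* (20 and 20 against 14 and 16) had both Tet3smKO:T values below both Ctrl values. Over all peaks, both Tet3smKO:T values lay above both Ctrl values in 17.1% and below both in 16.6%.

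Among 19 regulators of nuclear mitochondrial genes, 4 had a peak. *Nrf1* itself had values of 24 and 20 in Ctrl versus 26 and 22 in Tet3smKO:T, and *Gabpb1*, which encodes the partner subunit of GABP, had 9 and 11 against 10 and 8. *Creb1*, of the CRE-binding factors, had 12 and 15 against 10 and 13, and all 3 overlapped between genotypes. *Yy1* had 5 and 13 against 14 and 20, without overlap (0.95 ± 0.48 SE, limma adjusted p = 0.715), at a peak centred 1281 nt downstream of its TSS.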

How the data were processed

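Pol II pSer5 ChIP–seq of DRB-treated lung SMCs was analysed in 2 Ctrl and 2 Tet3smKO:T libraries, matched to the value columns by genotype and replicate number in the sample titles. The 4 input samples are not represented by a column and were not used here. According to the methods and the submitters' processing notes (FastQC, Trimmomatic 0.36, Picard 2.17.10, MACS2, DESeq2, mm10), the authors trimmed and deduplicated reads, called and unified peaks, subtracted input and normalized with DESeq2 (the values below leave the subtraction unsettled), while the paper names another trimmer for this assay. The aligner is not given in the sources used here. Deposited per-library values are scores, that is, normalized reads rounded by the authors to whole numbers. The authors also deposited the fraction of each peak inside the gene body and their own genotype means, which give no result here, and 0 columns of per-sample values were unused. Estimated reads came from a single factor fitted per library (0.908 and 1.25 in Ctrl, 0.69 and 1.20 in Tet3smKO:T). In replicate 1 of each genotype the factor is under 1, so every whole number lies on a step and this could not be checked. In replicate 2 of each genotype, over 99.8% of values fell on rounded whole reads times the factor. Subtraction of scaled input would not be expected to leave such steps, so whether these values are input-subtracted is not settled. The estimated reads bear on counting error only.

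All 1761 peaks were fitted with limma 3.58.1 under R 4.3.3 (linear models with empirical Bayes moderation and a mean trend, no covariates) on log2(value + 1), with Benjamini–Hochberg adjustment over all peaks and a threshold of 0.05. Fold changes on this scale understate changes of low peaks. Python 3.11.15 with pandas 2.3.3, numpy 2.4.6 and pysam 0.24.0 was used otherwise, and matplotlib 3.10.9 for plots. Of 1312 genes with a peak, 1310 were found by identifier in GENCODE M21 (GRCm38), on the same chromosome. Sequences came from RefSeq GRCm38.p6. The members and gene lists were chosen with earlier results of these data known. The rule for named genes took those with an unadjusted p under 0.05, the 4 higher and 4 lower with the largest change among members with the same sign in both same-numbered pairs and a mean at or above the median of all peaks, and the member with the highest mean of each group. A gene among these is not reported here. Other members and listed genes were named after their values were seen. Other settings tried were the pseudocount, normalization, leaving out low peaks, a replicate block, a quasi-Poisson test, leaving out each library, and the windows for motifs and starts.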

Additional observations from a re-analysis of the deposited data

Results flagged for a closer look

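In data outside the members, 7 further peaks lay within 500 nt of the start of a gene that meets the name rule, although the table assigned them to another gene or to none. Their values were signal in peaks that the comparisons of members did not use. A peak near *Timm21*, an import gene, was assigned to *Fbxo15* and had values of 25 and 34 in Ctrl versus 17 and 14 in Tet3smKO:T, without overlap (log2 fold change -0.88 ± 0.28 SE, limma adjusted p = 0.681). The peaks near *Cox15* (assigned to *Cutc*, 16 and 14 against 12 and 10) and *Slc25a29* (no gene assigned, 15 and 13 against 6 and 11) did not overlap between genotypes either. Those near *Cox11* (*Stxbp4*, 12 and 23 against 13 and 7), *Uqcrh* (*Lrrc41*, 14 and 8 against 10 and 6), *Cox20* (no gene, 5 and 11 against 8 and 4) and *Atp5mpl* (no gene, 12 and 6 against 6 and 5) overlapped. All 7 were below 0, with a median log2 fold change of -0.56, and none passed the test by limma. With them, the median of 47 peaks was -0.21, with 17 above 0, and both Tet3smKO:T values lay below both Ctrl values in 10 of 47 (3 of them among the 7), where the share over all peaks was 16.6%. Whether the polymerase at these peaks belongs to the mitochondrial gene or to its neighbor cannot be told apart.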

How the results depend on the processing

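No member passed an adjusted p of 0.05 under any alternative run. Over all peaks, 6 passed with values scaled to the same total per library and 5 in the quasi-Poisson test, which also moved the median log2 fold change of members to -0.18. Leaving out each library in turn gave medians from -0.30 (without Ctrl replicate 2) to 0.025 (without Tet3smKO:T replicate 1), shares of members above 0 from 22.5% to 52.5%, and 2 to 5 of 40 members with an unadjusted p under 0.05 in place of 1, while over all 1761 peaks this number was 92 to 178 in place of 127. The sign of the median thus rests on single libraries. In these fits the lone library of a genotype is assumed to vary like the pair of the other. The difference in the share of summed values ranged from -0.23 to 0.13 percentage points. The counts of signs by group rest partly on members outside the rule for named genes whose sign also changed between alternatives. Among these, *Atp5f1* ranged from -0.32 to 0.22, *Mrps23* from -0.10 to 1.00, *Cox17* from -0.13 to 0.72 and *Cox7a2* from -0.36 to 0.46. *Ndufb6* ranged from -0.0037 to 0.34 and *Ndufb10* from -0.82 to 1.08. The sign also changed for *Mrpl1*, *Mrpl15*, *Mrpl21*, *Mrpl30*, *Mrpl58*, *Mars2* and *Slc25a16*. Of 17 members that the rule for named genes took, 8 changed sign when a library was left out. Their log2 fold changes ranged from -0.66 to 0.082 for *Tomm7*, -0.44 to 0.021 for *Tomm20*, -0.45 to 0.30 for *Slc25a32*, -0.10 to 0.36 for *Mrpl39*, -0.14 to 0.044 for *Sdhb*, -1.0 to 0.21 for *Cox18*, -1.40 to 0.26 for *Ndufab1* and -1.11 to 0.0043 for *Coq9*. The sign changed without Ctrl replicate 1 for *Tomm7*, *Tomm20* and *Slc25a32*, without Ctrl replicate 2 for *Mrpl39*, without Tet3smKO:T replicate 1 for *Sdhb*, *Cox18* and *Slc25a32*, and without Tet3smKO:T replicate 2 for *Ndufab1* and *Coq9*. *Ndufs7* stayed between -1.57 and -0.75 in all 11 alternatives, with adjusted p from 0.110 to 0.780. Same-numbered libraries did not deviate together (r = -0.07 over all peaks), and nothing states that they share animals. With the replicate number as a block, 74 peaks had an unadjusted p under 0.05 in place of 127, 0 passed the adjusted threshold, and the median of members remained -0.07. At 5 to 19 estimated reads per library for *Ndufs7*, counting error alone is large. The cause of these shifts was not tested.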
